A study of Gallus gallus with 8 samples.

Results

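The step from the equatorial epithelium (EQ) to the cortical fibers (FP) of the embryonic day 13 (E13) chicken lens was examined in 9716 of the 16906 loci in the deposited table of gene levels. These members were the loci that carried a gene symbol and reached 1 FPKM or more in EQ or FP. FPKM is a level of RNA in which the fragments counted on a gene are divided by its length and by the depth of sequencing. Of the members, 8496 reached 1 FPKM in both regions, 489 were below it in EQ and 731 were below it in FP. Nearest to that limit, PMEL was inside with 0.755 FPKM in EQ and 1.00 in FP, and PLCXD2 was outside with 1 FPKM not reached in either region, at 0.9997 FPKM in EQ and 0.647 in FP.

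Microdissected tissue from 100 E13 lenses was pooled for each library, and each region had 2 libraries, so EQ and FP rest on 4 of the 8 libraries of the series. No treatment, strain, genotype or sex was given for the embryos. According to the study's methods a set of lenses was divided into every region, so that an EQ and an FP library can come from the same lenses. Each value is a pool over many animals, and the deposited level is itself 1 value per region that Cuffdiff fitted over both libraries. Each level is therefore given as the authors' value with its deposited 95% interval in parentheses, and no spread between libraries and no test could be computed. The number of reads behind each value was not known, since counts were not used here.

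Epithelial cells of the lens divide near the equator, leave the cell cycle and elongate into fiber cells, which wrap around the older fibers of the core. During elongation fiber cells fill with crystallins, build a beaded filament cytoskeleton and a spectrin-based membrane skeleton, and join to one another through gap junctions. They later degrade their mitochondria, other organelles and nuclei. Signals of the FGF, BMP, Notch and Wnt families act on this transition, and the epithelium carries most of the ion pumping of the lens and lays down the anterior capsule.

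The lens identity of both samples was plain in the highest levels. CRYAA, the alpha-crystallin chaperone of the lens, had 58291 FPKM (97.7 to 148395) in EQ and 27994 FPKM (5.25 to 98089) in FP, the highest level of any member with a single name in each region. Markers of neighboring tissues were mostly low in both regions. Of 9 pigmented epithelium markers in the table, 2 reached 1 FPKM, with MITF highest at 2.94 FPKM in EQ and 3.4 in FP, and of 6 endothelium markers, 1 did, KDR with 1.43 FPKM in EQ and 0.398 in FP. Of the 8 neural retina markers measured, ELAVL4 had 6.33 FPKM in EQ and 6.53 in FP, CRX had 0.293 FPKM in EQ and 1.02 in FP, and GNAT1 shared a locus with SEMA3F.

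Red blood cell markers were measurable. The globin genes HBAA and HBB had 94.1 FPKM in EQ and 138 in FP, and 44.1 FPKM in EQ and 49.6 in FP, respectively, neither 2-fold apart, while HBZ was listed at 0 in both regions and SLC4A1, the red cell anion exchanger, was below 1 FPKM. GYPC, a glycophorin on the same list, had 20.1 FPKM (2.85 to 37.4) in EQ and 783 FPKM (2.42 to 2237) in FP, 48-fold higher. Summed over the 9 loci of that list the level was 192 FPKM in EQ and 997 FPKM in FP, most of it GYPC in FP. Among 5 white blood cell loci CD3E rose from 0.416 FPKM (0.0622 to 0.747) to 4.54 FPKM (1.31 to 7.78) and CD74 fell from 24.8 FPKM (0 to 88.7) to 6.72 FPKM (0 to 13.4). Among 6 mesenchyme and cornea loci DCN, a proteoglycan, rose 5.85-fold to 12.4 FPKM (4.54 to 20.1) and KERA, a keratocyte proteoglycan, fell 4.85-fold to 2.31 FPKM (0.131 to 5.63). The part of other cell types in the results was not tested. In such bulk tissue, fewer cells of a type and less RNA per cell cannot be told apart.

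The median member with 1 FPKM or more in both regions was 1.23 times lower in FP than in EQ, a log2 ratio of -0.30. Every ratio was centred on that median, and all folds below are relative to it, so that an unchanged FPKM stands for a centred log2 ratio of 0.30. A member is said to have risen or fallen when the centred level differed at least 2-fold, which is a description of the pooled values. By this rule 1798 members rose in FP (18.5% of 9716) and 1688 fell (17.4%). The deposited intervals of the regions stood apart for 233 of the risen members (2.4% of all members) and for 254 of the fallen (2.61%). Intervals that overlap do not show that a gene was unchanged. The median centred log2 ratio of all members was -0.03. Without centring, 1388 rose and 2504 fell, and centred on the upper quartile 1524 rose and 2143 fell. Of the genes named below, CRYBB3, BFGF, PITX3, MAFG, BNIP3L and CCT7 rose by this rule but were less than 2-fold higher without centring. Others stayed within 2-fold by the rule but were more than 2-fold lower without centring, among them CRYAA, CRYBA2, EEF1A, FGFR3, TRPM3 and GART. For 29 members the deposited FPKM lay outside its own interval, among them the 3 mitochondrial loci, PCP4, RPL36, NDUFA1, NDUFB1, COX8A, ATP6V0E1, S100A10, HMGA1 and HMGA2, and 116 loci merged more than 1 gene name, so their values are uncertain.

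Rises were larger than falls. At least 8-fold higher levels in FP were found for 381 members against 75 at least 8-fold lower, and at least 32-fold for 88 against 3. Not all of these were separated by the intervals. For 111 of the 381 members the lower bound of the FP interval lay below the FPKM of the same gene in EQ, and for 17 of the 75 the lower bound of the EQ interval lay below the FPKM in FP. Members with a mean level of 20 to 100 FPKM rose in 26.2% and fell in 11.3% of 2077 cases, whereas those with a mean of 2 to 5 FPKM rose in 12.1% and fell in 22.4% of 2033 cases.

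**Figure D1:**
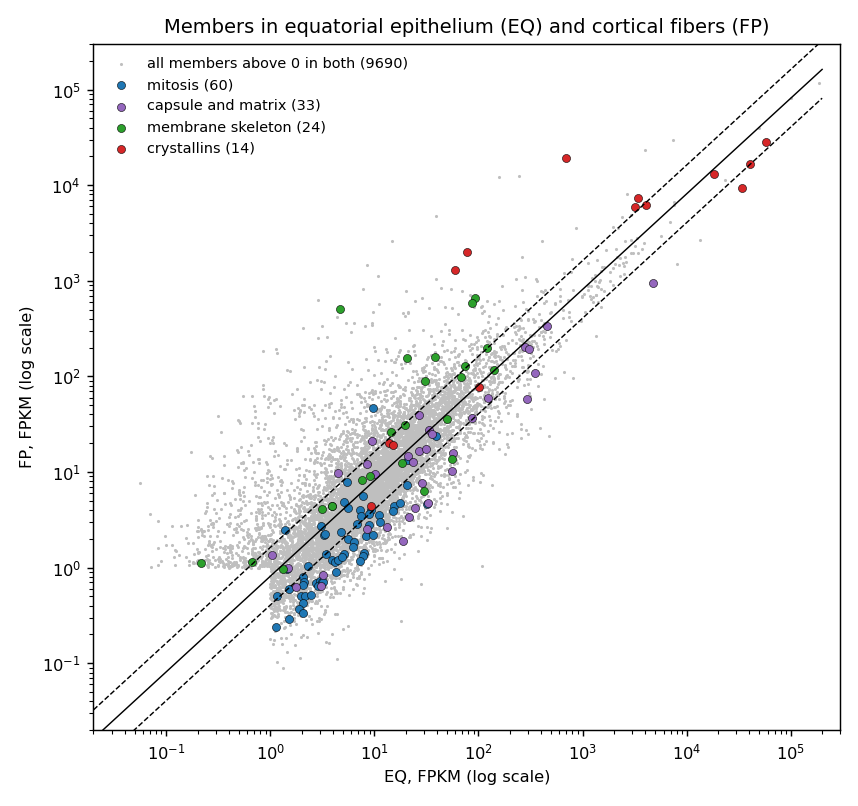
Level of 9690 members above 0 in both regions, FPKM in EQ (x axis) against FPKM in FP (y axis), both on log scales, with members of 4 function lists colored. The solid line is the median ratio and the broken lines are 2-fold to either side of it. Below the lower line lie 39 of 60 mitosis genes, and 3 crystallins stand far above the upper one.

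The 20 largest rises among members with 1 name and 1 FPKM or more in both regions ran from 65.4-fold to 267-fold, and the intervals stood apart for 6 of the 20. PNP, the purine nucleoside phosphorylase, headed them with 2.87 FPKM (0.787 to 4.95) in EQ and 625 FPKM (2.3 to 1536) in FP, 267-fold higher. GLULD1 encodes lengsin, a fiber cell protein of the glutamine synthetase fold, and had 14.7 FPKM (3.04 to 26.3) in EQ and 2627 FPKM (0.066 to 8619) in FP, 220.0-fold higher. HOPX, a small homeodomain protein that does not bind DNA, had 8.47 FPKM (1.95 to 14.8) in EQ and 1458 FPKM (1.68 to 3680.4) in FP, 212-fold higher. Against a median member level of 8.38 FPKM in EQ and 6.88 FPKM in FP, these 3 genes were low or moderate in EQ and high in FP, yet each lower bound in FP was under the EQ level.

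The 6 rises whose intervals stood apart were BASP1, EPB49, FABP5, C12orf69, PALM2 and PPP2R2C. BASP1, a membrane-bound protein best known from growing nerve endings, had 39.1 FPKM (11 to 65.2) in EQ and 4778 FPKM (469 to 9082) in FP, 150.2-fold higher. EPB49 encodes dematin, an actin-bundling protein of the membrane skeleton, with 4.7 FPKM (1.23 to 7.97) in EQ and 503 FPKM (62.8 to 940.3) in FP, 132-fold higher. FABP5, which binds fatty acids, had 10.9 FPKM (4.01 to 17.7) in EQ and 1132 FPKM (61.3 to 2250.2) in FP, 128-fold higher. PALM2 encodes a paralemmin, a protein of the inner face of the plasma membrane, and had 3.54 FPKM (1.41 to 5.69) in EQ and 260.2 FPKM (7.19 to 590.0) in FP, 90.4-fold higher. In each of these the whole FP interval lay above the EQ interval. PTRF, which encodes the caveolar coat protein cavin, had 7.77 FPKM (2.71 to 12.8) in EQ and 831 FPKM (0.218 to 2250.5) in FP, 132-fold higher, and CLIC5, a chloride intracellular channel protein, had 1.14 FPKM (0.0175 to 10.2) in EQ and 192 FPKM (0.105 to 529) in FP, 207-fold higher. LMO2, a partner of transcription factors, had 2.08 FPKM (0.515 to 3.65) in EQ and 321 FPKM (3.44 to 751) in FP, 189.6-fold higher. The other members of the 20 were RAB40B, IRAK4, CHAC2, BFSP1, SASS6, LCA5L, FN3KRP and TMEM47, from 65.4-fold to 186-fold higher, and the intervals overlapped for each of these 8.

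The 10 members with less than 1 FPKM in EQ and the highest levels in FP are named next. PTPN5, a tyrosine phosphatase studied in brain, had 0.846 FPKM (0.0786 to 1.57) in EQ and 186 FPKM (3.46 to 372) in FP, 270.1-fold higher. MFSD2B, a sphingolipid transporter of red cells and platelets, had 0.843 FPKM (0.209 to 1.46) in EQ and 82 FPKM (1.55 to 171) in FP, 119.6-fold higher. HSF4, the heat shock factor required in fiber cells, had 0.848 FPKM (0 to 2.77) in EQ and 73.8 FPKM (2.00 to 162) in FP, 107-fold higher. GJA4, a connexin gene, had 0.981 FPKM (0.295 to 1.62) in EQ and 61.2 FPKM (23 to 99.5) in FP, 76.8-fold higher. The others were SALL1, CCDC67, SAMD10, BIRC7, UPP1 and ABTB2, at 47.4 to 63.1 FPKM in FP. For 6 of the 10 the intervals stood apart.

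The 20 largest falls ran from 9.33-fold to 16.5-fold, and the intervals stood apart for 13 of them. CYP1B1, a cytochrome P450 that metabolizes retinoids and steroids, had 478 FPKM (13.5 to 965) in EQ and 23.6 FPKM (4.97 to 45.9) in FP, 16.5-fold lower. HES5, HEYL and HEY1, transcriptional repressors downstream of Notch, were in this set and are given with that pathway. HGD, an enzyme of tyrosine breakdown, had 50.3 FPKM (17.1 to 83.6) in EQ and 2.63 FPKM (0.597 to 4.69) in FP, 15.6-fold lower. FABP3, another fatty acid binding protein, had 26 FPKM (7.82 to 43.9) in EQ and 1.49 FPKM (0.237 to 2.61) in FP, 14.1-fold lower, the opposite direction to FABP5. CER1, a secreted antagonist of BMP and Nodal ligands, had 391 FPKM (12.2 to 1012) in EQ and 28.6 FPKM (2.34 to 95.6) in FP, 11.1-fold lower. RELN, the secreted matrix protein reelin, had 27.9 FPKM (8.48 to 47.2) in EQ and 2.13 FPKM (0.815 to 3.46) in FP, 10.6-fold lower. The set also held the collagen gene COL24A1 (9.84-fold lower), the matrix gene MXRA5 (9.59-fold lower), the retinoid transporter gene ABCA4 (9.69-fold lower) and the amino acid transporter gene SLC7A2 (10.8-fold lower). FAM198B, KCTD12, NET1, CAB39L, NDNF, FSHB, SOUL and C1QTNF7 made up the rest, 9.33-fold to 15-fold lower.

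Among members below 1 FPKM in FP, the highest EQ level was that of LYPD1, a Ly6-type surface protein, with 17.9 FPKM (3.08 to 40.7) in EQ and 0.28 FPKM (0 to 3.61) in FP, 52-fold lower. STEAP1, a metalloreductase family member, had 15.5 FPKM (3.61 to 27.5) in EQ and 0.974 FPKM (0.103 to 2.45) in FP, 12.9-fold lower, and EDG7, a lysophosphatidic acid receptor, had 12.5 FPKM (5.24 to 19.8) in EQ and 0.729 FPKM (0 to 1.46) in FP, 14-fold lower. PCP4, a calmodulin-binding peptide, was listed at 7.5 FPKM in EQ, higher than its deposited upper limit (6.69), and at 0 in FP, so no fold was formed. The remaining 6 were ANGPTL4, G0S2, ADAMTSL3, KCNV1, STYK1 and ADAMTS13, from 7.38 to 8.61 FPKM in EQ, and all 6 had intervals apart.

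**Figure D2:**
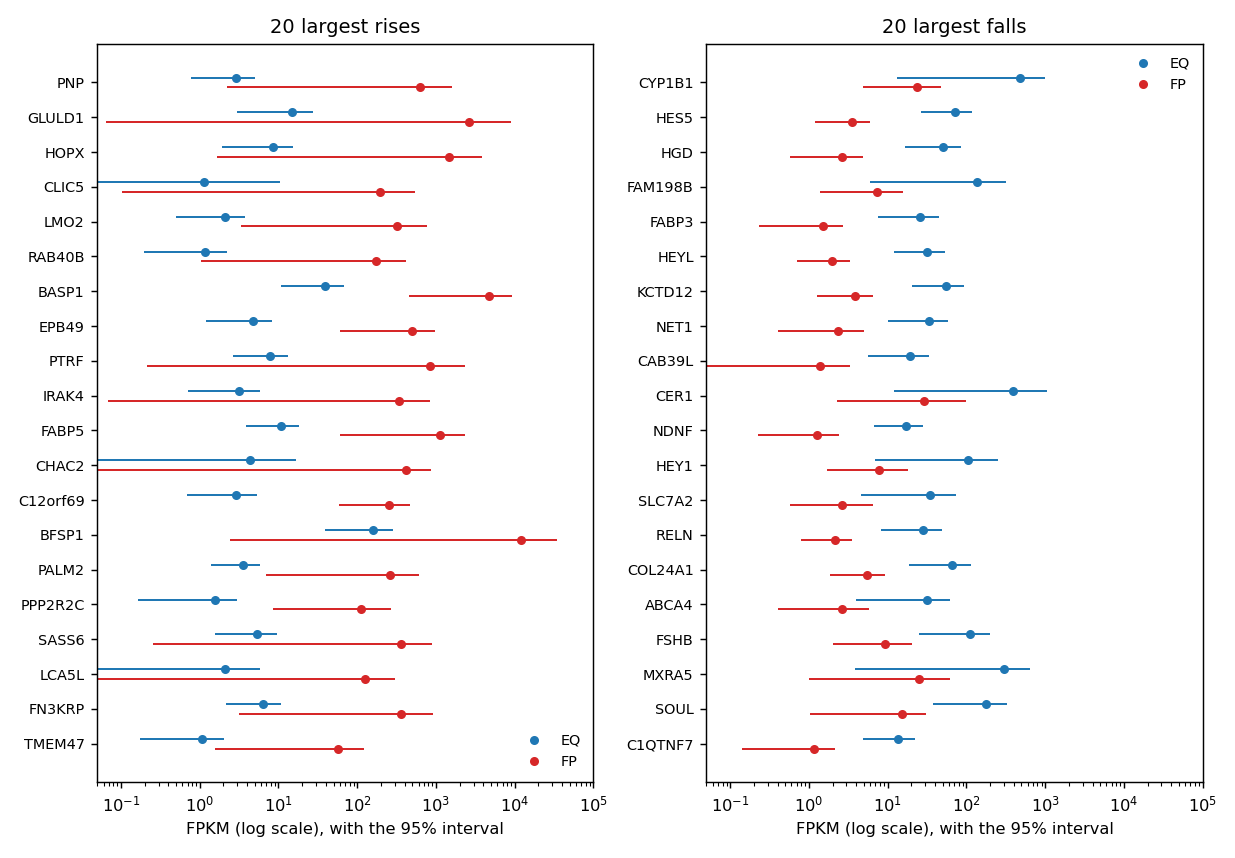
FPKM (x axis, log scale) of the 20 largest rises (left) and the 20 largest falls (right) in EQ (blue) and FP (red), each with its deposited 95% interval as a line that is clipped at the left edge where it reaches lower. The FP intervals of the rises are wide and 6 of 20 pairs stand apart, against 13 of 20 among the falls.

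Genes for the structural proteins of the fiber cell rose in part. Of 14 members of the crystallin list, 5 rose and 1 fell, with a median centred log2 ratio of 0.73. CRYBB1, a beta-crystallin, had 694 FPKM (184 to 1201) in EQ and 19219 FPKM (13.5 to 39227) in FP, 34.1-fold higher. CRYBA4 had 76.8 FPKM (24.5 to 111) in EQ and 1984 FPKM (389 to 3502) in FP, 31.8-fold higher, and CRYGN, a gamma-type crystallin, had 58.9 FPKM (16 to 75.1) in EQ and 1304 FPKM (245 to 2294) in FP, 27.2-fold higher. The intervals stood apart for CRYBA4 and CRYGN. The most abundant crystallins of EQ moved the other way or little. CRYBB2 had 34093 FPKM (1823 to 66269) in EQ and 9423 FPKM (526 to 18276) in FP, 2.94-fold lower, and CRYBA2 had 40633 FPKM (1614 to 79460.4) in EQ and 16794 FPKM (1095 to 32363) in FP, a centred log2 ratio of -0.98. CRYAA and CRYAB, the alpha-crystallins, had centred log2 ratios of -0.76 and -0.17. ASL2, a delta-crystallin gene that also encodes argininosuccinate lyase, had 3371 FPKM (454 to 6287) in EQ and 7288 FPKM (558 to 14010.1) in FP, 2.66-fold higher, a value that is uncertain because its sequence is close to that of the main delta-crystallin gene. CRYBB3 rose 2.26-fold to 5885 FPKM (749.9 to 10916). The 6 beta-crystallins of the table therefore spanned centred log2 ratios from -1.56 to 5.09.

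Both beaded filament genes rose. BFSP1, which encodes filensin, had 159 FPKM (40.1 to 277) in EQ and 12162 FPKM (2.51 to 33057) in FP, 94.3-fold higher. CP49, which encodes its partner phakinin, had 247 FPKM (68.7 to 415) in EQ and 12633 FPKM (5.45 to 25298) in FP, 63-fold higher. VIM, the vimentin of the general intermediate filament, had 7550.1 FPKM (29.1 to 15234) in EQ and 6228 FPKM (13.6 to 12840.2) in FP, a centred log2 ratio of 0.02. The nuclear lamin genes LMNA, LMNB1 and LMNB2 fell, 2.78-fold, 2.16-fold and 2.31-fold. Across the intermediate filament list of 8 members, 2 rose and 3 fell. The remaining 3, VIM, DMN and NES, had centred log2 ratios of 0.02, 0.05 and 0.68.

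Of 11 members of the junction, channel and lens fiber protein list, 9 rose and 2 fell, with a median centred log2 ratio of 2.26. The list mixes connexins with other proteins, does not hold GJA4, and has FYCO1 at its median. It was chosen with earlier results of these data known, so its counts only describe the genes listed. GJA3, a fiber connexin, had 226 FPKM (68.7 to 383) in EQ and 541 FPKM (111 to 968) in FP, 2.94-fold higher. GJA1, the epithelial connexin, had 817 FPKM (28.9 to 2073) in EQ and 96.2 FPKM (6.02 to 283) in FP, 6.91-fold lower. GJA3 and GJA1 thus moved in opposite directions. TDRD7 and CAPRIN2, RNA granule proteins of fiber cells, rose 6.37-fold and 8.41-fold. FYCO1, an adaptor for autophagosome transport, had 5.77 FPKM (2.46 to 9.07) in EQ and 22.5 FPKM (8.72 to 36.1) in FP, 4.8-fold higher. DNASE2B, the nuclease that degrades fiber nuclei in mice, was low in both regions, with 1.59 FPKM (0.508 to 2.68) in EQ and 0.521 FPKM (0 to 1.15) in FP, 2.48-fold lower. MIP, LIM2 and GRIFIN were not matched to a name and are not analysed here.

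Of 24 members of the membrane skeleton list, 11 rose and 2 fell, with a median centred log2 ratio of 0.90. SPTAN1 and SPTBN1, the spectrin chains of non-erythroid cells, had 92.8 FPKM (22.2 to 163) in EQ and 662 FPKM (15.2 to 1316) in FP, 8.77-fold higher, and 86 FPKM (19.1 to 153) in EQ and 586 FPKM (9.09 to 1323) in FP, 8.39-fold higher. EPB41 encodes the protein that joins spectrin to actin and had 20.4 FPKM (5.99 to 34.8) in EQ and 156 FPKM (3.75 to 435) in FP, 9.43-fold higher. Its relatives divided, since EPB41L1 rose 5.13-fold to 159 FPKM (8.32 to 330.2), whereas EPB41L2 fell 3.87-fold to 6.29 FPKM (0.794 to 14.3) and EPB41L3 fell 3.28-fold to 13.8 FPKM (1.89 to 28.8). CHANK3, an ankyrin gene, rose 3.6-fold. Of the tropomodulins, which cap actin filaments, TMOD1, TMOD2 and TMOD3 had centred log2 ratios of 0.47, 0.70 and 0.30, and SKTMOD had 0.216 FPKM (0 to 0.426) in EQ and 1.11 FPKM (0 to 4.53) in FP, 6.33-fold higher. SKTMOD was listed at the same coordinates as PSMD4, and both of its intervals started at 0. Apart from dematin, no interval of this list stood apart.

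Of 27 members of the cell adhesion list, 5 rose and 5 fell, with a median centred log2 ratio of 0.03. NRCAM, a neural-type adhesion molecule, had 2.78 FPKM (0.924 to 4.62) in EQ and 91.3 FPKM (8.82 to 222) in FP, 40.4-fold higher. CTNNA2, a catenin that links cadherins to actin, was listed at 2 loci, with 15.7 FPKM (6.53 to 24.9) in EQ and 253 FPKM (0.796 to 577) in FP, 19.7-fold higher, and with 7.29 FPKM (2.48 to 12.1) in EQ and 62.8 FPKM (13.7 to 112) in FP, 10.6-fold higher. CLDN1, a tight junction claudin, had 0.264 FPKM (0 to 0.641) in EQ and 14.8 FPKM (0.849 to 28.8) in FP, 68.8-fold higher. CDH2, the N-cadherin of lens cells, had 167 FPKM (21.9 to 312) in EQ and 149 FPKM (16.8 to 339) in FP, a centred log2 ratio of 0.14. The falls included CDH6 (7.2-fold) and NCAM1 (2.63-fold). The shares of the list that rose and that fell were 18.5% each, against 18.5% and 17.4% of all members.

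Of 46 members of the microtubule and motor list, 16 rose and 3 fell, with a median centred log2 ratio of 0.42. TUBB6 and TUBB3, beta-tubulins, had 19 FPKM (7.91 to 30.1) in EQ and 466 FPKM (26.6 to 967) in FP, 30.2-fold higher, and 3.78 FPKM (1.19 to 6.36) in EQ and 67 FPKM (23.2 to 110.3) in FP, 21.8-fold higher. KIF1A, a kinesin that carries vesicles along axons, had 62.9 FPKM (17.5 to 108) in EQ and 455 FPKM (22.8 to 887) in FP, 8.9-fold higher. Other motor genes that rose were DYNC1I1 (5.91-fold), KIF21A (5.84-fold) and KIF5C (5.58-fold). MYO5A, an actin-based motor, had 64.3 FPKM (5.56 to 123) in EQ and 8.18 FPKM (1.74 to 16.2) in FP, 6.39-fold lower. Of 7 beta-tubulin loci, which resemble one another closely in sequence, 3 rose and 1 fell. The interval stood apart for TUBB3 alone among the 16 risen genes.

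Many genes of the lens capsule and matrix fell. Of 33 members of the capsule and matrix list, 2 rose and 15 fell, with a median centred log2 ratio of -0.76. SPARC, a collagen-binding protein, had 4775 FPKM (68.6 to 10066) in EQ and 954 FPKM (32.4 to 1965) in FP, 4.07-fold lower. NID1, the basement membrane linker nidogen, had 294 FPKM (16.7 to 589.8) in EQ and 58.7 FPKM (3.39 to 132) in FP, 4.07-fold lower. COL4A1 had 21.5 FPKM (7.7 to 35.3) in EQ and 3.43 FPKM (0.914 to 5.95) in FP, 5.1-fold lower, with the intervals apart. The 6 collagen IV genes all had centred log2 ratios below 0, and 3 of them, COL4A1, COL4A2 and COL4A3, fell. COL4A5, the most abundant of them, had 460.1 FPKM (12 to 910.2) in EQ and 341 FPKM (1.36 to 937) in FP, a centred log2 ratio of -0.13. COL11A1 fell 8.09-fold and TNC, which encodes tenascin, fell 5.63-fold, both with intervals apart. Enzymes and chaperones of collagen folding were also lower, with SERPINH1 down 2.6-fold and PLOD2 down 4.4-fold. The 2 members of this list that rose were laminin chain genes, but laminins did not rise as a group. Among the 8 laminin loci 2 rose and 2 fell, LAMA3 4.83-fold and LAMA4 3.91-fold. LAMA5 had 9.39 FPKM (3.54 to 15.2) in EQ and 21.1 FPKM (6.63 to 35.5) in FP, 2.76-fold higher, and LAMA1 had 4.51 FPKM (1.5 to 7.55) in EQ and 9.73 FPKM (1.56 to 18) in FP, 2.65-fold higher. Capsule genes thus did not move as a unit.

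Many genes of cell division fell. Of 60 members of the mitosis list, 2 rose and 39 fell, with a median centred log2 ratio of -1.45. Of 44 members of the DNA replication list, 3 rose and 22 fell, with a median centred log2 ratio of -1.01. Of 28 members of the cell cycle control list, 1 rose and 13 fell, with a median centred log2 ratio of -0.82. CDC2, the kinase that drives entry into mitosis, had 31.7 FPKM (11.3 to 52) in EQ and 4.66 FPKM (0.322 to 9.19) in FP, 5.52-fold lower. MKI67, a marker of cycling cells, had 3.23 FPKM (1.3 to 5.16) in EQ and 0.709 FPKM (0.164 to 1.26) in FP, 3.71-fold lower. TYMS, which makes thymidylate, had 7.38 FPKM (2.87 to 11.8) in EQ and 1.07 FPKM (0.213 to 2.02) in FP, 5.6-fold lower, and RRM2, a ribonucleotide reductase subunit, had 13.4 FPKM (5.7 to 21) in EQ and 2.45 FPKM (0.722 to 4.25) in FP, 4.45-fold lower. For all 4 the intervals stood apart. The 5 minichromosome maintenance genes measured, which encode subunits of the replicative helicase, had centred log2 ratios from -1.66 to -0.81, and MCM2 had 9.93 FPKM (4.18 to 15.7) in EQ and 2.55 FPKM (0.959 to 4.1) in FP, 3.17-fold lower. Of 11 centromere protein genes, 8 fell.

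WEE1, the kinase that holds back CDC2, had 43.7 FPKM (9.92 to 77.4) in EQ and 4.69 FPKM (0.943 to 8.64) in FP, 7.56-fold lower. CCND1, a cyclin of the early cell cycle, had 66.9 FPKM (7.62 to 158) in EQ and 14 FPKM (1.73 to 43.7) in FP, 3.89-fold lower, and its partner kinase gene CDK6 moved the other way with 9.55 FPKM (3.31 to 15.8) in EQ and 27.4 FPKM (7.94 to 46.8) in FP, 3.53-fold higher. CDKN1B, a cell cycle inhibitor, had 97.8 FPKM (21.4 to 174) in EQ and 60.1 FPKM (7.65 to 123) in FP, a centred log2 ratio of -0.40. A few division genes rose, among them CDC20 (9.76 FPKM in EQ and 46.2 in FP), which activates the anaphase-promoting complex, and RFC2 (9.55 FPKM in EQ and 31.2 in FP), a clamp loader subunit. With 1 added to each FPKM the median of the mitosis list was -0.84 in place of -1.45.

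**Figure D3:**
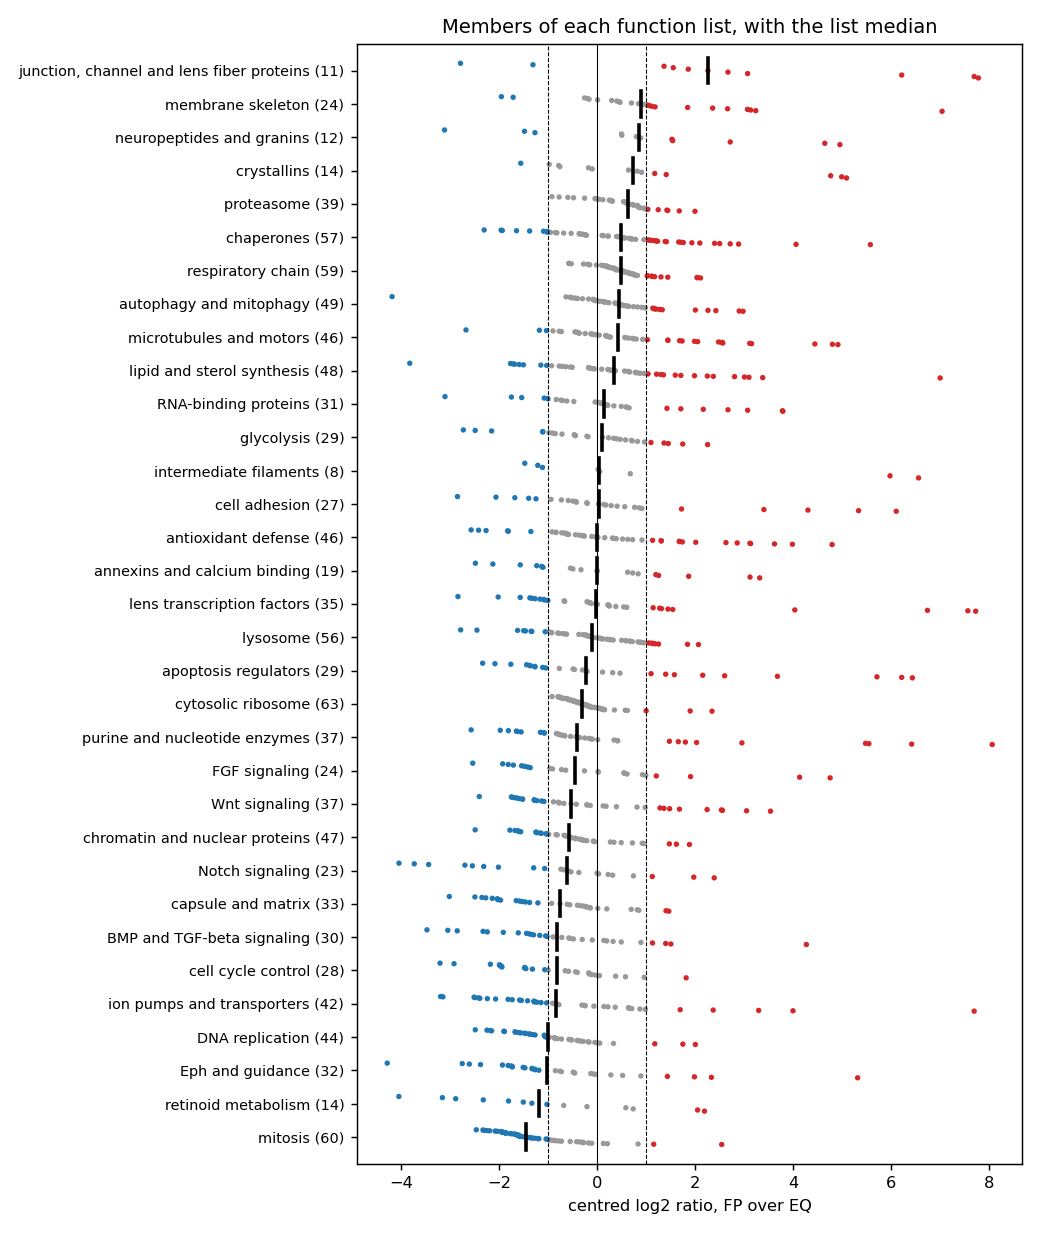
Centred log2 ratio, FP over EQ (x axis), of each member of 33 function lists (rows, with the number of members), with a black bar at the list median. Red points rose and blue points fell at least 2-fold, and the medians run from -1.45 for mitosis to 2.26 for junction, channel and lens fiber proteins. The lists were chosen with earlier results of these data known.

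Several genes of Notch signaling, a pathway that maintains progenitor cells, fell. Of 23 members of the Notch signaling list, 3 rose and 9 fell, with a median centred log2 ratio of -0.61, and 5 of the falls had intervals apart. HES5 had 70.9 FPKM (27.7 to 114) in EQ and 3.5 FPKM (1.24 to 5.73) in FP, 16.5-fold lower. HEYL had 32.1 FPKM (12.5 to 51.7) in EQ and 1.96 FPKM (0.722 to 3.22) in FP, 13.3-fold lower, and HEY1 had 105 FPKM (7.18 to 244) in EQ and 7.84 FPKM (1.76 to 17.4) in FP, 10.8-fold lower. The receptor genes fell with these targets, as NOTCH2 had 26.3 FPKM (6.54 to 46) in EQ and 3.3 FPKM (1.22 to 5.37) in FP, 6.48-fold lower and NOTCH1 had 19.1 FPKM (5.76 to 32.4) in EQ and 3.85 FPKM (0.844 to 7.58) in FP, 4.04-fold lower. In contrast JAG1, a Notch ligand, had 31.4 FPKM (9.4 to 53.4) in EQ and 100.2 FPKM (2.15 to 238) in FP, 3.93-fold higher, and PSEN2, a subunit of the protease that cleaves Notch, had 13.3 FPKM (3.9 to 23.1) in EQ and 56.9 FPKM (5.55 to 118) in FP, 5.24-fold higher. The ligand gene DLL1 had 2.98 FPKM (1.04 to 4.88) in EQ and 2.42 FPKM (0.384 to 4.5) in FP, a centred log2 ratio of -0.00. HES4, another repressor gene, was listed at 2 loci, which had centred log2 ratios of -2.31 and -0.68.

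Of 30 members of the BMP and TGF-beta signaling list, 4 rose and 14 fell, with a median centred log2 ratio of -0.81. ID2 and ID3, inhibitors of DNA binding induced by BMP, had 253 FPKM (77.7 to 429) in EQ and 28.5 FPKM (3.85 to 108) in FP, 7.23-fold lower, and 124 FPKM (41.1 to 192) in EQ and 26.7 FPKM (7.89 to 44.1) in FP, 3.77-fold lower. TGFB2, the main TGF-beta ligand of the eye, had 104 FPKM (7.41 to 203) in EQ and 17.9 FPKM (2.03 to 52) in FP, 4.73-fold lower. INHBB, an activin subunit, had 6.75 FPKM (2.04 to 11.4) in EQ and 0.665 FPKM (0 to 1.22) in FP, 8.26-fold lower. BMP2 had the largest rise on the list, with 0.566 FPKM (0 to 1.09) in EQ and 8.89 FPKM (3.27 to 14.4) in FP, 19.3-fold higher, and the intervals of BMP2 and INHBB stood apart. All 3 ID genes on the list fell, while 3 of 6 SMAD genes did.

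**Figure D4:**
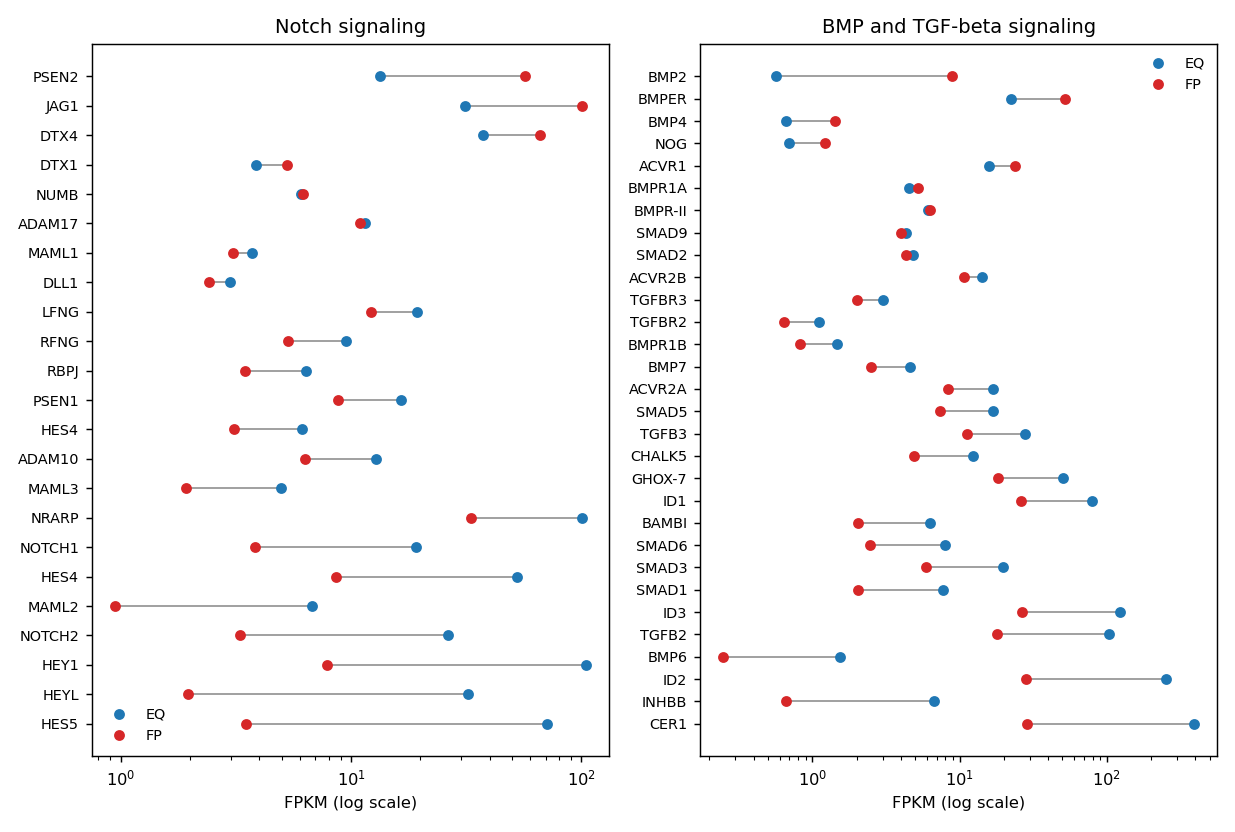
FPKM (x axis, log scale) in EQ (blue) and FP (red) of the 23 members of the Notch list (left) and the 30 members of the BMP and TGF-beta list (right), ordered by centred ratio. JAG1 and BMP2 lie to the right in FP, and HES5, HEYL, HEY1 and CER1 lie far to the left.

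Of 24 members of the FGF signaling list, 4 rose and 8 fell, with a median centred log2 ratio of -0.45. Its share of rises was near that of all members, of which 18.5% rose and 17.4% fell. FGF1, a ligand that induces fiber differentiation, had 5.15 FPKM (1.92 to 8.34) in EQ and 73.5 FPKM (27.7 to 118) in FP, 17.5-fold higher, with the intervals apart. BFGF, the basic FGF gene, had 5.82 FPKM (0.445 to 16.8) in EQ and 10.9 FPKM (1.8 to 29.3) in FP, 2.31-fold higher. The receptor gene FGFR2 had 56.7 FPKM (12.6 to 101) in EQ and 7.95 FPKM (1.78 to 15.3) in FP, 5.8-fold lower, and FGFR3, the most abundant receptor of the list in both regions, had 154 FPKM (10.2 to 305) in EQ and 64.3 FPKM (2.51 to 157) in FP, a centred log2 ratio of -0.97. ETV4, a transcription factor induced by FGF, had 9.58 FPKM (3.71 to 15.2) in EQ and 29.2 FPKM (7.42 to 49.8) in FP, 3.75-fold higher, while ER81, a factor of the same family, had 10.9 FPKM (4.56 to 17.3) in EQ and 3.33 FPKM (0.557 to 7.58) in FP, 2.67-fold lower, and ETV5, the third of that family, had a centred log2 ratio of 0.93. The feedback inhibitor SPRY2 fell 3.27-fold. FGF8 had 0.0975 FPKM (0 to 0.633) in EQ and 2.14 FPKM (0.422 to 3.8) in FP, 27-fold higher, and FGF19 had 5.99 FPKM (2.44 to 9.55) in EQ and 1.28 FPKM (0.234 to 2.34) in FP, 3.8-fold lower. FGF12, an FGF-like factor that stays inside the cell, had 53.8 FPKM (20.9 to 86.4) in EQ and 63.9 FPKM (20.2 to 108) in FP, a centred log2 ratio of 0.55. The ligand genes FGF1, BFGF and FGF8 thus rose and FGF19 fell, and 1 of the 4 receptor genes named FGFR1 to FGFR4 fell. Without centring FGFR3 was more than 2-fold lower as well.

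Of 37 members of the Wnt signaling list, 9 rose and 13 fell, with a median centred log2 ratio of -0.53. WNT5B had 10.1 FPKM (4.01 to 16.1) in EQ and 67.8 FPKM (16.5 to 119) in FP, 8.28-fold higher, with the intervals apart, and WNT7A had 80.3 FPKM (8.06 to 160.4) in EQ and 209 FPKM (5.55 to 616) in FP, 3.21-fold higher. WNT2B had 156 FPKM (13.8 to 302) in EQ and 41.1 FPKM (3.33 to 83.3) in FP, 3.08-fold lower. Of the 8 Wnt ligand genes among the members, 5 rose and 3 fell. LEF-1, the factor through which beta-catenin acts on DNA, had 19.3 FPKM (8.3 to 30.3) in EQ and 2.96 FPKM (0.388 to 8.22) in FP, 5.29-fold lower, and AXIN2, a common target of that pathway, fell 2.12-fold.

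Of 32 members of the Eph and guidance list, which holds receptors and their ligands, 4 rose and 16 fell, with a median centred log2 ratio of -1.02. EPHB1, an ephrin receptor, had 0.283 FPKM (0 to 0.589) in EQ and 9.17 FPKM (2.46 to 15.9) in FP, 39.9-fold higher, and EPHA2, the ephrin receptor needed for fiber packing, had 8.39 FPKM (3.63 to 13.1) in EQ and 34.3 FPKM (11.1 to 57.4) in FP, 5.04-fold higher. EFNB2, a membrane-bound ephrin, had 79.4 FPKM (20.1 to 139) in EQ and 19.5 FPKM (0.864 to 46.6) in FP, 3.31-fold lower. Of 7 plexin loci, receptors for semaphorins, 5 fell, 1 of them merged with a microRNA locus, among them PLXNB2 with 9.82 FPKM (3.02 to 16.6) in EQ and 1.18 FPKM (0.271 to 2.37) in FP, 6.74-fold lower. The semaphorin gene SEMA3C fell 6.09-fold. Eph receptors thus moved both ways. EPHB1, EPHA2 and EPHA3 rose, and EPHB2, EPHA6 and EPHB6 fell, 2.28-fold, 2.4-fold and 5.2-fold. EPHB3 and EPHA5 stayed within 2-fold. Among these receptors the intervals stood apart for EPHB1 and EPHB6. In all, 16 of the 32 genes fell.

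Of 35 members of the lens transcription factor list, 9 rose and 10 fell, with a median centred log2 ratio of -0.03. MAF, which activates crystallin genes, had 49.7 FPKM (18.4 to 80.3) in EQ and 110.0 FPKM (39.8 to 179.5) in FP, 2.73-fold higher, and PITX3 had 399.9 FPKM (97.2 to 701) in EQ and 788 FPKM (139 to 1436) in FP, 2.42-fold higher. SOX2, a partner of PAX6 in the lens placode, had 8.76 FPKM (2.5 to 14) in EQ and 117 FPKM (34.2 to 199) in FP, 16.4-fold higher, with the intervals apart. PROX1, a homeodomain factor needed for elongation, had 76 FPKM (5.31 to 156) in EQ and 62.1 FPKM (2.00 to 174) in FP, a centred log2 ratio of 0.01. PAX-6, the eye master regulator, had 208 FPKM (33 to 383) in EQ and 57 FPKM (4.27 to 125) in FP, 2.97-fold lower, and EYA1, a transcriptional cofactor, had 13.1 FPKM (4.43 to 21.7) in EQ and 1.48 FPKM (0.314 to 3.87) in FP, 7.16-fold lower. MEIS1 and HSF3 fell 2.59-fold and 2.13-fold. HSF4, HOPX and LMO2, given above, also belong to this list, which was likewise chosen with earlier results of these data known. PAX-6, EYA1 and MEIS1 were therefore lower and MAF and SOX2 higher, but not every relative on the list moved with them. Of the MAF, EYA and MEIS genes, MAFA, MAFF, EYA2 and MEIS2 stayed within 2-fold. MAFG and MAFK rose and EYA4 fell. MAFA had 142 FPKM (49.4 to 233) in EQ and 176 FPKM (45.2 to 307) in FP, a centred log2 ratio of 0.61.

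Of 31 members of the RNA-binding protein list, 7 rose and 5 fell, with a median centred log2 ratio of 0.14. Both shares were near those of all members, of which 18.5% rose and 17.4% fell. RBM24 and RBM38, related RNA-binding proteins that act on splicing and message stability, had 69.5 FPKM (4.02 to 142) in EQ and 783 FPKM (9.11 to 2582) in FP, 13.9-fold higher, and 48 FPKM (17.5 to 78.4) in EQ and 537 FPKM (1.9 to 1142) in FP, 13.8-fold higher. YBX1, a cold shock domain protein that packs messenger RNA and stands outside this list, had 3944 FPKM (108 to 8509) in EQ and 23555 FPKM (16.5 to 77404) in FP, 7.35-fold higher, which made it the next highest single-name member in FP after CRYAA. PTBP1, a splicing repressor, fell 3.36-fold to 7.36 FPKM (1.58 to 15.1), and PTBP2, its neural relative, rose 2.69-fold to 5.62 FPKM (1.51 to 15). PCBP3 had 19.3 FPKM (7.75 to 30.8) in EQ and 1.83 FPKM (0 to 3.7) in FP, 8.6-fold lower.

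Of 37 members of the purine and nucleotide enzyme list, 9 rose and 9 fell, with a median centred log2 ratio of -0.40. Beside PNP, the following genes rose. ADA, which deaminates adenosine, had 3.33 FPKM (1.25 to 5.42) in EQ and 121 FPKM (15.7 to 226) in FP, 44.6-fold higher. NT5C2, a cytosolic nucleotidase, had 9.55 FPKM (3.94 to 15.1) in EQ and 363 FPKM (3.59 to 836) in FP, 46.8-fold higher. UPP1, a uridine phosphorylase, had 0.705 FPKM (0.102 to 1.32) in EQ and 49.1 FPKM (2.24 to 96.3) in FP, 85.6-fold higher, and HPRT1, which salvages hypoxanthine, had 22 FPKM (4.71 to 39.9) in EQ and 139 FPKM (7.84 to 298) in FP, 7.76-fold higher. Among the falls, PURH, an enzyme of new purine synthesis, had 64.2 FPKM (23.7 to 104) in EQ and 14.9 FPKM (5.93 to 23.7) in FP, 3.51-fold lower. PPAT, AIRC and ADSS, which also act in purine synthesis, were 2.93-fold, 2.23-fold and 3.13-fold lower. PPAT and AIRC were listed at the same coordinates, and both PPAT intervals started at 0. ADSSL1, a relative of ADSS, rose 2.78-fold to 94.8 FPKM (5.13 to 216). ADSL, IMPDH2, GMPS and GART, other genes of purine synthesis, stayed within 2-fold. PRPS2, which supplies the ribose phosphate of nucleotides, had 9.86 FPKM (2.23 to 17.6) in EQ and 1.35 FPKM (0.0576 to 2.89) in FP, 5.94-fold lower. CAD, the first enzyme of pyrimidine synthesis, fell 2.11-fold. APRT, which salvages adenine, fell 2.12-fold.

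Of 29 members of the glycolysis list, 5 rose and 5 fell, with a median centred log2 ratio of 0.11. ENO1, the enolase that serves as tau-crystallin in some birds, had 8146 FPKM (251 to 16010.1) in EQ and 1489.9 FPKM (207 to 2775) in FP, 4.45-fold lower. ENO2, its neural form, rose 4.78-fold to 10.2 FPKM (2.44 to 19.8). ALDOC, an aldolase, had 368 FPKM (101 to 633) in EQ and 1004 FPKM (222 to 1768) in FP, 3.36-fold higher. SLC16A1, a lactate transporter, had 211 FPKM (47.7 to 374) in EQ and 25.8 FPKM (6.51 to 45.2) in FP, 6.63-fold lower, and SLC16A3, another lactate transporter, rose 2.74-fold to 73.1 FPKM (3.7 to 209). SLC2A1, the main glucose transporter, had 596 FPKM (19.3 to 1204) in EQ and 225 FPKM (4.77 to 571) in FP, 2.15-fold lower. The shares of the list that rose and that fell were 17.2% each, against 18.5% and 17.4% of all members.

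Of 59 members of the respiratory chain list, 10 rose and 0 fell, with a median centred log2 ratio of 0.48, and 51 had a centred ratio above 0, against 41 without centring. Of all members with a ratio, 48.9% had a centred ratio above 0 and 37.1% an uncentred ratio above 0. The share of the list that rose was slightly below the 18.5% of all members, of which 17.4% fell. Members with a mean level of 20 to 100 FPKM rose in 26.2% of cases, with a median centred log2 ratio of 0.33. Those with a mean of 100 to 1000 FPKM rose in 33.4%, with a median of 0.36. NDUFA12 and NDUFB10, subunits of complex I, had 70.5 FPKM (24.5 to 111) in EQ and 248 FPKM (84.1 to 407) in FP, 4.32-fold higher, and 127 FPKM (44.7 to 208) in EQ and 424 FPKM (110.3 to 737) in FP, 4.12-fold higher. No interval in this list stood apart. The 3 mitochondrial loci of the table, which merge several genes each, summed to 335068 FPKM in EQ and 238047 FPKM in FP, and the deposited FPKM of each lay outside its own interval. Without centring the list median was 0.18.

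Of 48 members of the lipid and sterol synthesis list, 14 rose and 8 fell, with a median centred log2 ratio of 0.34. Its share of falls was near that of all members, of which 18.5% rose and 17.4% fell. SC5DL, a desaturase of cholesterol synthesis, had 43.2 FPKM (16.5 to 69.8) in EQ and 301 FPKM (19.1 to 582) in FP, 8.57-fold higher. ELOVL1, which makes very long fatty acids, had 18.5 FPKM (7.48 to 29.6) in EQ and 121 FPKM (39.4 to 203) in FP, 8.04-fold higher, with the intervals apart. SCD, which desaturates fatty acids, had 30.1 FPKM (7.8 to 52.3) in EQ and 127 FPKM (7.39 to 275) in FP, 5.18-fold higher. HMGCS1 and FDFT1, which make sterol precursors, rose 2.56-fold and 3.27-fold. FASN, the fatty acid synthase, had a centred log2 ratio of -0.51.

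Of 14 members of the retinoid metabolism list, 2 rose and 8 fell, with a median centred log2 ratio of -1.18, and 3 of the falls had intervals apart. CYP26A1 and CYP26C1, which degrade retinoic acid, had 11.4 FPKM (4.35 to 18.4) in EQ and 1.25 FPKM (0.234 to 2.29) in FP, 7.39-fold lower, and 5.71 FPKM (2.21 to 9.25) in EQ and 0.521 FPKM (0.0959 to 0.911) in FP, 8.92-fold lower. RBP5, a retinol binding protein, had 108 FPKM (32.8 to 168) in EQ and 17.6 FPKM (4.48 to 29.6) in FP, 5.00-fold lower. STRA6, the receptor that takes up retinol, had 146 FPKM (40.5 to 250.2) in EQ and 58.3 FPKM (15.7 to 101) in FP, 2.03-fold lower. DHRS3, which turns retinal back to retinol, had 2.08 FPKM (0.738 to 3.43) in EQ and 7.74 FPKM (3.01 to 12.4) in FP, 4.57-fold higher, and RXRG, a retinoid receptor, rose 4.14-fold, so retinoid genes did not all fall.

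Of 39 members of the proteasome list, 7 rose and 0 fell, with a median centred log2 ratio of 0.63, and 32 of them had a centred ratio above 0, against 28 without centring. The share of proteasome genes that rose, 17.9%, was close to that of all members, 18.5%, and the 2077 members with a mean level of 20 to 100 FPKM had a median centred log2 ratio of 0.33. PSMD9 had 28.3 FPKM (12.3 to 44.3) in EQ and 73.7 FPKM (25.1 to 122) in FP, 3.2-fold higher, and no interval stood apart. Of 49 members of the autophagy and mitophagy list, 11 rose and 1 fell, with a median centred log2 ratio of 0.44. Over all members 18.5% rose and 17.4% fell, and without centring the median of the autophagy and mitophagy list was 0.14. ATG4B and ATG3, which process and attach the lipid-anchored proteins of the autophagosome, had 16.3 FPKM (6.88 to 25.6) in EQ and 104 FPKM (19.9 to 189) in FP, 7.89-fold higher, and 5.18 FPKM (1.89 to 8.47) in EQ and 31.4 FPKM (1.89 to 62.5) in FP, 7.46-fold higher. BNIP3 and BNIP3L, receptors that bring mitochondria to autophagosomes, had 22.8 FPKM (8.09 to 37.5) in EQ and 99.5 FPKM (10.1 to 189) in FP, 5.36-fold higher, and 128 FPKM (25.6 to 229.7) in EQ and 228 FPKM (9.98 to 603) in FP, 2.2-fold higher. MAP1LC3C was the exception, with 5.05 FPKM (1.46 to 8.55) in EQ and 0.226 FPKM (0 to 0.626) in FP, 18.2-fold lower. The other 37 of this list stayed within 2-fold.

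Of 56 members of the lysosome list, 7 rose and 8 fell, with a median centred log2 ratio of -0.10. Both shares were below those of all members, of which 18.5% rose and 17.4% fell. Of 14 genes of the proton pump, 6 rose and none fell, led by ATP6V1D with 42.2 FPKM (17.4 to 66.9) in EQ and 144 FPKM (34 to 254) in FP, 4.19-fold higher. The proteases CTSK and CTSO fell 6.89-fold and 3.08-fold, and SCARB2, a lysosomal membrane protein, had 12.7 FPKM (5.47 to 19.9) in EQ and 1.88 FPKM (0.369 to 3.5) in FP, 5.47-fold lower. CTSD, another protease, had 55.2 FPKM (19 to 91.5) in EQ and 67.5 FPKM (14.7 to 120.3) in FP, a centred log2 ratio of 0.59.

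Of 57 members of the chaperone list, 19 rose and 9 fell, with a median centred log2 ratio of 0.50. Its share of falls was near that of all members, of which 18.5% rose and 17.4% fell. HSPB8 and HSPB1, small heat shock proteins, had 1.25 FPKM (0.241 to 2.25) in EQ and 48.6 FPKM (8.92 to 88.4) in FP, 47.7-fold higher, and 7.96 FPKM (2.12 to 12.5) in EQ and 47.9 FPKM (12.7 to 81.1) in FP, 7.4-fold higher, with the intervals apart for both. HSP70, the inducible cytosolic chaperone, had 112 FPKM (38.9 to 186) in EQ and 481 FPKM (105 to 854) in FP, 5.27-fold higher. Several chaperones of the endoplasmic reticulum fell, as HSPA5 had 182 FPKM (53.1 to 311) in EQ and 47.4 FPKM (17.4 to 77.4) in FP, 3.13-fold lower and HSP90B1 had 138 FPKM (41.7 to 234) in EQ and 28.9 FPKM (11.3 to 46.5) in FP, 3.89-fold lower. HSP90AB1, a cytosolic form, fell as well, with 369 FPKM (85.4 to 652) in EQ and 78.6 FPKM (24.2 to 133) in FP, 3.82-fold lower. The 6 genes of the cytosolic chaperonin measured had centred log2 ratios from 0.50 to 1.13, of which 1, that of CCT7, passed 2-fold.

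Of 46 members of the antioxidant defense list, 14 rose and 6 fell, with a median centred log2 ratio of 0.01. GLRX, a glutaredoxin, had 20.8 FPKM (5.25 to 36.4) in EQ and 469.8 FPKM (108 to 832) in FP, 27.8-fold higher. MSRA, which repairs oxidized methionine, had 10.1 FPKM (3.77 to 16.4) in EQ and 71.2 FPKM (19 to 124) in FP, 8.69-fold higher, and GPX1, a glutathione peroxidase, had 109 FPKM (37.9 to 179.7) in EQ and 549.7 FPKM (100.2 to 999) in FP, 6.19-fold higher. MGST1, a glutathione transferase of membranes, had 77.4 FPKM (29.8 to 125) in EQ and 13.1 FPKM (5.14 to 20.9) in FP, 4.81-fold lower, and SEPP1, the secreted selenoprotein, had 427 FPKM (31.5 to 928) in EQ and 58.5 FPKM (9.51 to 142) in FP, 5.94-fold lower. The 4 peroxiredoxin genes stayed within 2-fold, with centred log2 ratios from -0.36 to 0.02. The intervals stood apart for GLRX, MSRA, MGST1, TXNRD1 and 1 of the loci named GSTA3.

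Of 29 members of the apoptosis regulator list, 9 rose and 10 fell, with a median centred log2 ratio of -0.22. DFFB, the caspase-activated nuclease, had 2.92 FPKM (0 to 12.2) in EQ and 124 FPKM (0 to 388) in FP, 52.4-fold higher, and its inhibitor DFFA had 12.9 FPKM (3.18 to 22.7) in EQ and 63.9 FPKM (6.72 to 121) in FP, 6.07-fold higher. CASP6, a caspase gene, fell 4.24-fold to 0.551 FPKM (0.0727 to 1.09). APAF1, the scaffold of the apoptosome, had 9.63 FPKM (2.95 to 16.3) in EQ and 1.55 FPKM (0.389 to 3.42) in FP, 5.05-fold lower. The nuclease and its inhibitor thus rose together, while the apoptosome scaffold fell.

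Of 47 members of the chromatin and nuclear protein list, 3 rose and 14 fell, with a median centred log2 ratio of -0.56. HMGB2, a chromatin protein of dividing cells, had 10.7 FPKM (4.5 to 16.8) in EQ and 1.55 FPKM (0.177 to 3.00) in FP, 5.61-fold lower, with the intervals apart. TMPO, a lamina-associated protein, and EZH2, a histone methyltransferase, fell 3.43-fold and 2.38-fold. KDM5A, a histone demethylase, rose 3.69-fold. Of 63 members of the cytosolic ribosome list, 3 rose and 0 fell, with a median centred log2 ratio of -0.31. RPL38, a large subunit protein, had 2647 FPKM (456 to 3839.9) in EQ and 8030.1 FPKM (1022 to 13848) in FP, 3.73-fold higher. In that list 60 of 63 genes stayed within 2-fold.

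Of 42 members of the ion pump and transporter list, 5 rose and 19 fell, with a median centred log2 ratio of -0.84. ATP1B3, a regulatory subunit of the sodium pump, fell 3.32-fold, whereas ATP1B1, another regulatory subunit, had 28.9 FPKM (4.98 to 54.4) in EQ and 43.1 FPKM (2.76 to 146) in FP, a centred log2 ratio of 0.87. ATP1B1 was listed at the same coordinates as NME7. SLC6A6, the taurine transporter, had 79.6 FPKM in EQ and 7.31 in FP, 8.85-fold lower with the intervals apart. SLC38A2, which takes up neutral amino acids, had 258 FPKM (17.7 to 579) in EQ and 22.9 FPKM (4.29 to 64.4) in FP, 9.15-fold lower, and SLC12A2, the sodium-potassium-chloride cotransporter, had 21.9 FPKM (3.74 to 43.6) in EQ and 3.33 FPKM (0.759 to 8.02) in FP, 5.34-fold lower. Genes that rose were CLIC5 and the channel genes PIEZO2, IRK1, KCNK1 and CACNA2D1. PIEZO2, a stretch-activated channel, had 0.668 FPKM (0.226 to 1.11) in EQ and 8.67 FPKM (1.55 to 15.9) in FP, 16-fold higher. The falls thus included pumps and uptake transporters, and the 5 rises were channels and related proteins, but channel genes also fell. SCNN1A, a sodium channel subunit, had 4.82 FPKM (1.89 to 7.76) in EQ and 0.83 FPKM (0.0761 to 1.65) in FP, 4.72-fold lower with the intervals apart. PANX1, a pannexin channel gene, fell 2.99-fold. The channel genes TRPM3, KCNK2 and PIEZO1 stayed within 2-fold.

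Of 12 members of the neuropeptide and granin list, 5 rose and 3 fell, with a median centred log2 ratio of 0.85. SCG2, a granin of secretory vesicles, had 1.89 FPKM (0.586 to 3.18) in EQ and 38.6 FPKM (10.5 to 66.6) in FP, 25.1-fold higher, and PENK, which encodes the enkephalin precursor, had 0.347 FPKM (0 to 0.743) in EQ and 8.74 FPKM (2.31 to 15.1) in FP, 31-fold higher. TAC1, the precursor of substance P, had 49.5 FPKM (20.5 to 78.5) in EQ and 4.65 FPKM (1.11 to 8.28) in FP, 8.65-fold lower. All 3 had intervals apart. Of 19 members of the annexin and calcium binding list, 5 rose and 6 fell, with a median centred log2 ratio of 0.00. ANXA8, an annexin, had 10.2 FPKM (4.13 to 16.3) in EQ and 1.49 FPKM (0.233 to 2.8) in FP, 5.59-fold lower, and CAST, which inhibits calpains, had 13.3 FPKM (5.79 to 20.9) in EQ and 94.3 FPKM (0.919 to 204) in FP, 8.7-fold higher.

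The function lists also differed in how much of the summed level they took. Crystallins made up 17.6% of the summed FPKM of members in EQ and 13.4% in FP, and intermediate filaments 0.869% and 3.82%. The cytosolic ribosome took 11.8% in EQ and 10.5% in FP, and glycolysis 2.18% and 1.53%. The 3 mitochondrial loci took 36.2% in EQ and 29.3% in FP. Without the loci whose FPKM lay outside their own interval the crystallin shares were 28.4% in EQ and 19.6% in FP, and those of intermediate filaments were 1.40% and 5.56%. Without the 10 highest loci of each region the order of the crystallin shares turned, to 2.86% in EQ and 5.59% in FP. The paper states that the main delta-crystallin gene was left out of the run that gave these levels, so the crystallin shares do not hold it.

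Among the single-name members with the highest levels, MIF, a cytokine abundant in lens cells, had 13414 FPKM (1481 to 25354) in EQ and 2684 FPKM (317 to 5042) in FP, 4.06-fold lower. EEF1A, the translation elongation factor, had 23502 FPKM (22.5 to 55723) in EQ and 11247 FPKM (37.4 to 27353) in FP, a centred log2 ratio of -0.76, and GAPDH, a glycolytic enzyme, had 7536 FPKM (779.6 to 14260.0) in EQ and 6610.2 FPKM (689 to 12472) in FP, a centred log2 ratio of 0.11. RPL36, a ribosomal protein gene, was listed at 6867 FPKM in EQ and 4085 FPKM in FP, each outside the interval deposited for it. Of the 10 highest in FP, 5 were crystallin genes and 2 were the beaded filament genes. CP49 and BFSP1 were not among the 10 highest in EQ.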

How the data were processed

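Directional messenger RNA libraries from microdissected E13 chicken lens were aligned and quantified by the authors, who deposited FPKM per region from Cuffdiff 2.1.1 on the chicken build galGal4, each with a 95% interval. The 2 libraries of a region are pooled in each deposited FPKM, so no library could be left out and nothing could be tested from these levels. Counts were not used here, so the number of reads behind each FPKM was not known. The table of the authors' own comparisons (fold changes, p-values and q-values) was not used, nor were EC and FC. The paper did test EQ against FP with Cuffdiff over the replicates. It lists FGFR2 and APAF1, whose intervals overlap here, as significantly lower in FP. There were 0 further columns of values by sample.

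FPKM of loci with a symbol, at 1 or more in EQ or FP, was turned into log2 FP over EQ with nothing added and centred on the median of loci at 1 or more in both. No ratio was formed for 26 members at 0 in a region. Loci on small RNAs alone were not taken as genes with a symbol. Genes named are the 20 largest rises and falls among members with 1 name and 1 FPKM or more in both regions, the 10 highest in 1 region that are below 1 FPKM in the other, the 10 highest in each region, and examples from 33 function lists. Older symbols of 29 list entries were matched through synonyms in RefSeq. Members and lists were chosen with earlier results of these data known. The planned promoter motif search was not run. The alternatives were other added values, minimum levels and centrings, and leaving out loci whose FPKM is outside its own interval, merged loci, or the 10 highest loci, and summing loci that share a symbol. The calculation was run on simulated data with large known changes and little noise. That run checked the arithmetic and not how reliable the calls are. Python 3.11.15, numpy 2.4.6, pandas 2.3.3 and matplotlib 3.10.9 were used. Values of some single genes are not reported here.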

Additional observations from a re-analysis of the deposited data

How the results depend on the processing

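No paired analysis was possible because the deposited columns pool the libraries of a region, and for the same reason no library could be left out. Of 44 counts under 11 alternatives, 40 stayed within 1.5 times the reported count. That limit was a loose one. The counts with intervals apart stayed at 233 and 254 under every centring. The limit also took in the change from 1688 to 2504 falls without centring. There the rises made up 35.7% of the calls, against 51.6% with centring. With 1 added to each FPKM, 1058 members fell, and with a minimum of 5 FPKM 1102 fell, against 1688. Among members at 1 FPKM or more in both regions, intervals stood apart for 111 rises and 169 falls, against 233 and 254. Of 710 values for the 73 genes chosen for an extreme ratio or level, which could hardly lose a call, 704 stayed on the same side of the 2-fold limit, 6 passed it anew and 0 reversed. The genes named from the function lists are not among these values, except where they were also chosen in that way. Of those, CRYBB3, BFGF, PITX3, MAFG, BNIP3L and CCT7 rose but were less than 2-fold higher without centring. FGFR3, TRPM3 and GART were within 2-fold when centred but more than 2-fold lower without centring. Of 330 list medians, 329 stayed within 0.5 of the reported value, and that of mitosis was -0.84 with 1 added. Centring moved ratios by at most 0.30 on the log2 scale, so a change of centring could not fail that limit. List medians near 0 changed sign without centring. Among them, RNA-binding proteins turned to -0.16, glycolysis to -0.19, cell adhesion to -0.27 and intermediate filaments to -0.26. The direction of such lists thus depended on the centring.

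Shares of the summed FPKM depended on a few loci. Without loci outside their own interval the EQ shares were 28.4% for crystallins, 1.40% for intermediate filaments and 3.52% for glycolysis. Without the 10 highest loci of each region the shares were 2.86% in EQ and 5.59% in FP for crystallins, 2.04% in EQ for intermediate filaments, 28.7% in EQ and 21.0% in FP for the cytosolic ribosome, and 2.69% in FP for glycolysis, so that the crystallin share was higher in EQ or in FP depending on those loci.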

Other observations

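Members that rose or fell lay next to one another more often than their share among all members. Along the chromosomes, the next member after one that rose also rose in 26.1% of cases, against 18.4% over 9345 neighboring pairs, and the next after one that fell also fell in 23.9%, against 17.4%. No test was made of this. FN3KRP and RAB40B, both among the largest rises, lie 5318 bases apart on chromosome 18 of galGal4 with no other locus of the table between them. LMO2 and ABTB2 lie 111434 bases apart on chromosome 5 with 2 members between them.

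Shares also varied among the chromosomes with 100 or more members, against 18.5% that rose and 17.4% that fell over all members. On chromosome Z, a sex chromosome, 11.7% of 454 members rose and 23.1% fell. Chromosome 2 had a similar share of falls, 22.1% of 823 members, with 18.0% higher. Chromosome 13 had 24.3% of 214 members higher and 13.1% lower, and chromosome 28 had 23.1% of 169 higher and 11.2% lower. The sex of the pooled embryos was not given.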
